A study of Mus musculus with 8 samples.

Results

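The pluripotency network without Nanog itself was followed here through 10 genes: Pou5f1, Sox2, Klf4, Sall4, Klf5, Esrrb, Gdf3, Gbx2, Fbxo15 and Zfp42. Every probe that the array annotation assigns to one of these symbols was taken and kept apart, which gave 19 probes of the 45281 on the array and 10 of its 19057 symbols. RNA came from female mouse pre-iPSCs, cells halted partway from neural stem cells toward induced pluripotency, of strain 129/MF1. All of them carried an Oct4-GFP-IRES-puro reporter, a green fluorescent protein and drug resistance cassette read from the Oct4 (Pou5f1) locus or promoter, and were kept in serum with LIF on gelatin. All groups were stably transfected with PiggyBac transposon vectors under a CAG promoter together with the transposase, were drug selected, and were sampled at day 0 of a reprogramming assay.

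The 4 groups, each with 2 arrays, were empty vectors (EV), Nanog with an empty vector (Nanog), Sin3a with an empty vector (Sin3a), and Nanog with Sin3a (Nanog+Sin3a). Sin3a is the scaffold of a histone deacetylase co-repressor complex, and the series asks how it works with Nanog in pluripotency and reprogramming. The CAG promoter drives a transgene strongly in most cell types, so the Nanog and Sin3a levels are those of forced expression. The labels do not say which factors had produced the pre-iPSCs, nor where on a transcript each probe lies, so a probe for Pou5f1, Sox2 or Klf4 cannot be assigned to the endogenous gene or to a reprogramming transgene. Whether the arrays of a group come from separate cultures is not stated either, and p-values here cover only array-to-array spread, which may be technical. In RNA from a whole culture, fewer expressing cells and less RNA per cell cannot be told apart.

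The pluripotency network is a set of transcription factors that bind one another's genes and hold embryonic stem cells in a self-renewing state. Oct4 (the product of Pou5f1) pairs with Sox2 on shared DNA elements, Klf4, Klf5 and Esrrb sustain the naive state downstream of LIF and Wnt signals, and Sall4 partners Oct4 and Nanog. Gdf3, Fbxo15 and Zfp42 (Rex1) are classical markers of the embryonic stem cell state. Activation of Nanog and of the endogenous Pou5f1 is used to tell reprogrammed cells from partly reprogrammed ones.

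Intensities are linear, background-subtracted values per probe, and can be below 0. A value of 16 was used as the floor: values under it have no order, and all log2 values start from intensities raised to it. On the 8 arrays, 35.7% to 36.1% of probes lay above the floor. Replicate arrays correlated at r = 0.993 for EV, 0.985 for Nanog and 0.982 for Nanog+Sin3a across probes on the log2 scale, but at 0.784 for Sin3a. The 2 Sin3a arrays differed by more than 1 on the log2 scale in 80.1% of probes with a mean log2 value between 5 and 8, and in 0% of the 2670 probes with a mean above 9, which are called bright here. Comparisons without the Sin3a group were therefore fitted on 7 arrays, leaving out the second Sin3a array, and comparisons with it on the bright probes of all 8 arrays. Each transgene was read by 1 probe in the groups labelled with it. A Nanog probe (ILMN_1245732) read 364.8 and 485.8 in Nanog, 289.5 and 285.2 in Nanog+Sin3a, and between -12.2 and -3.6 on the 4 other arrays. The other Nanog probe (ILMN_2706623) did not follow the labels clearly: it read 5.6 to 21 with Nanog and -4.8 to 14.4 without it. A Sin3a probe (ILMN_2612143) read 1182.1 and 1141.6 in Sin3a and 1484.7 and 1483.3 in Nanog+Sin3a, against 261.8 to 472.5 on the 4 arrays without the Sin3a vector.

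The promoters of 3 members are shown because they stand for the kinds of readout found below. Gbx2 lay above the floor on every array with Nanog, with or without Sin3a. Pou5f1 was bright in every group, and Zfp42 lay at or near the floor in every group. Each promoter is the 250 bases before the start site, 5′ to 3′ on the gene's strand, from the RefSeq table of build GRCm38.p6. They lie at chr1:89931177-89931426 (minus strand) for Gbx2, chr17:35505782-35506031 (plus strand) for Pou5f1 and chr8:43307010-43307259 (minus strand) for Zfp42. Capitals mark matches to the searched motifs.
Gbx2: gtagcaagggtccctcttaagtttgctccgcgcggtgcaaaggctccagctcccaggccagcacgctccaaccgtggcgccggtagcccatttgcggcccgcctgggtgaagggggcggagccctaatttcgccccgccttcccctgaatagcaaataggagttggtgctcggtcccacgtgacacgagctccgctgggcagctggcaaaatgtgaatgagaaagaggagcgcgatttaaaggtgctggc
Pou5f1: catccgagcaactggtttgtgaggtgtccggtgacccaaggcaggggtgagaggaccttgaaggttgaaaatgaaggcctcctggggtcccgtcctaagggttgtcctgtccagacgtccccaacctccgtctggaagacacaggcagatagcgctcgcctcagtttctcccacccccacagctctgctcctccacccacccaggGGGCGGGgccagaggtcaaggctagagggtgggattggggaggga
Zfp42: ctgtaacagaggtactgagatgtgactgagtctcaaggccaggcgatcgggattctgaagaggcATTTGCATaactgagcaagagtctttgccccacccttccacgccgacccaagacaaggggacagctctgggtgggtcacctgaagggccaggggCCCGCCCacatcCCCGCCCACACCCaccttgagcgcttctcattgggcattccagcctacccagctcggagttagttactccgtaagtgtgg

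The motifs, searched on both strands, were the octamer ATGCAAAT of POU factors such as Oct4, the Sox cores ACAAAG and ACAATG, the homeodomain cores TAATGG and TAATTA, the Klf boxes GGGCGGG and GGGTGTG, and the Esrrb element TCAAGGTCA. The Zfp42 window held the octamer on the opposite strand with its leftmost base at -186 from the start site, GC boxes (GGGCGGG) starting at -92 and -80, and a GT box (GGGTGTG) at -74 that shares 1 base with the second GC box. The Pou5f1 window shown held 1 GC box at -45, and the Gbx2 window held none of these letters. Another Pou5f1 window, not shown, held the Sox core ACAATG at -158 and no GC box. The search used 8 windows of 6 members, of which 1 held the octamer, 4 the GC box and 2 the GT box. Member windows on 1 chromosome were left out of this search, while the set of all windows kept that chromosome. Among all 32851 windows the octamer was found in 1.6%, the GC box in 23.4% and the GT box in 6.93%. The other motifs were in 16.5% (ACAAAG), 10.7% (ACAATG), 6.57% (TAATGG), 4.84% (TAATTA) and 0.387% (TCAAGGTCA) of all windows, and in 1, 1, 0, 0 and 0 of the 8 member windows. A match describes the letters only.

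Members differed first in whether they could be read at all. Of the 19 probes, 9 lay above 16 on all 8 arrays, and they belonged to 6 genes: Pou5f1, Gdf3, Fbxo15, Klf4, Klf5 and Sall4. Another 3 probes lay at or below 16 on every array, namely 1 each of Klf4 (ILMN_2999439), Klf5 (ILMN_2433293) and Esrrb (ILMN_2555396). The remaining 7 lay above 16 on only some arrays. The genes with no probe above the floor throughout were Sox2, Gbx2, Esrrb and Zfp42. The filter for testing, an intensity above 16 on at least 2 of the 7 arrays, kept 14 probes of 9 genes, and Esrrb was not tested. Intensities of different probes cannot be set against each other, so levels are compared only between groups of arrays.

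**Figure D1:**
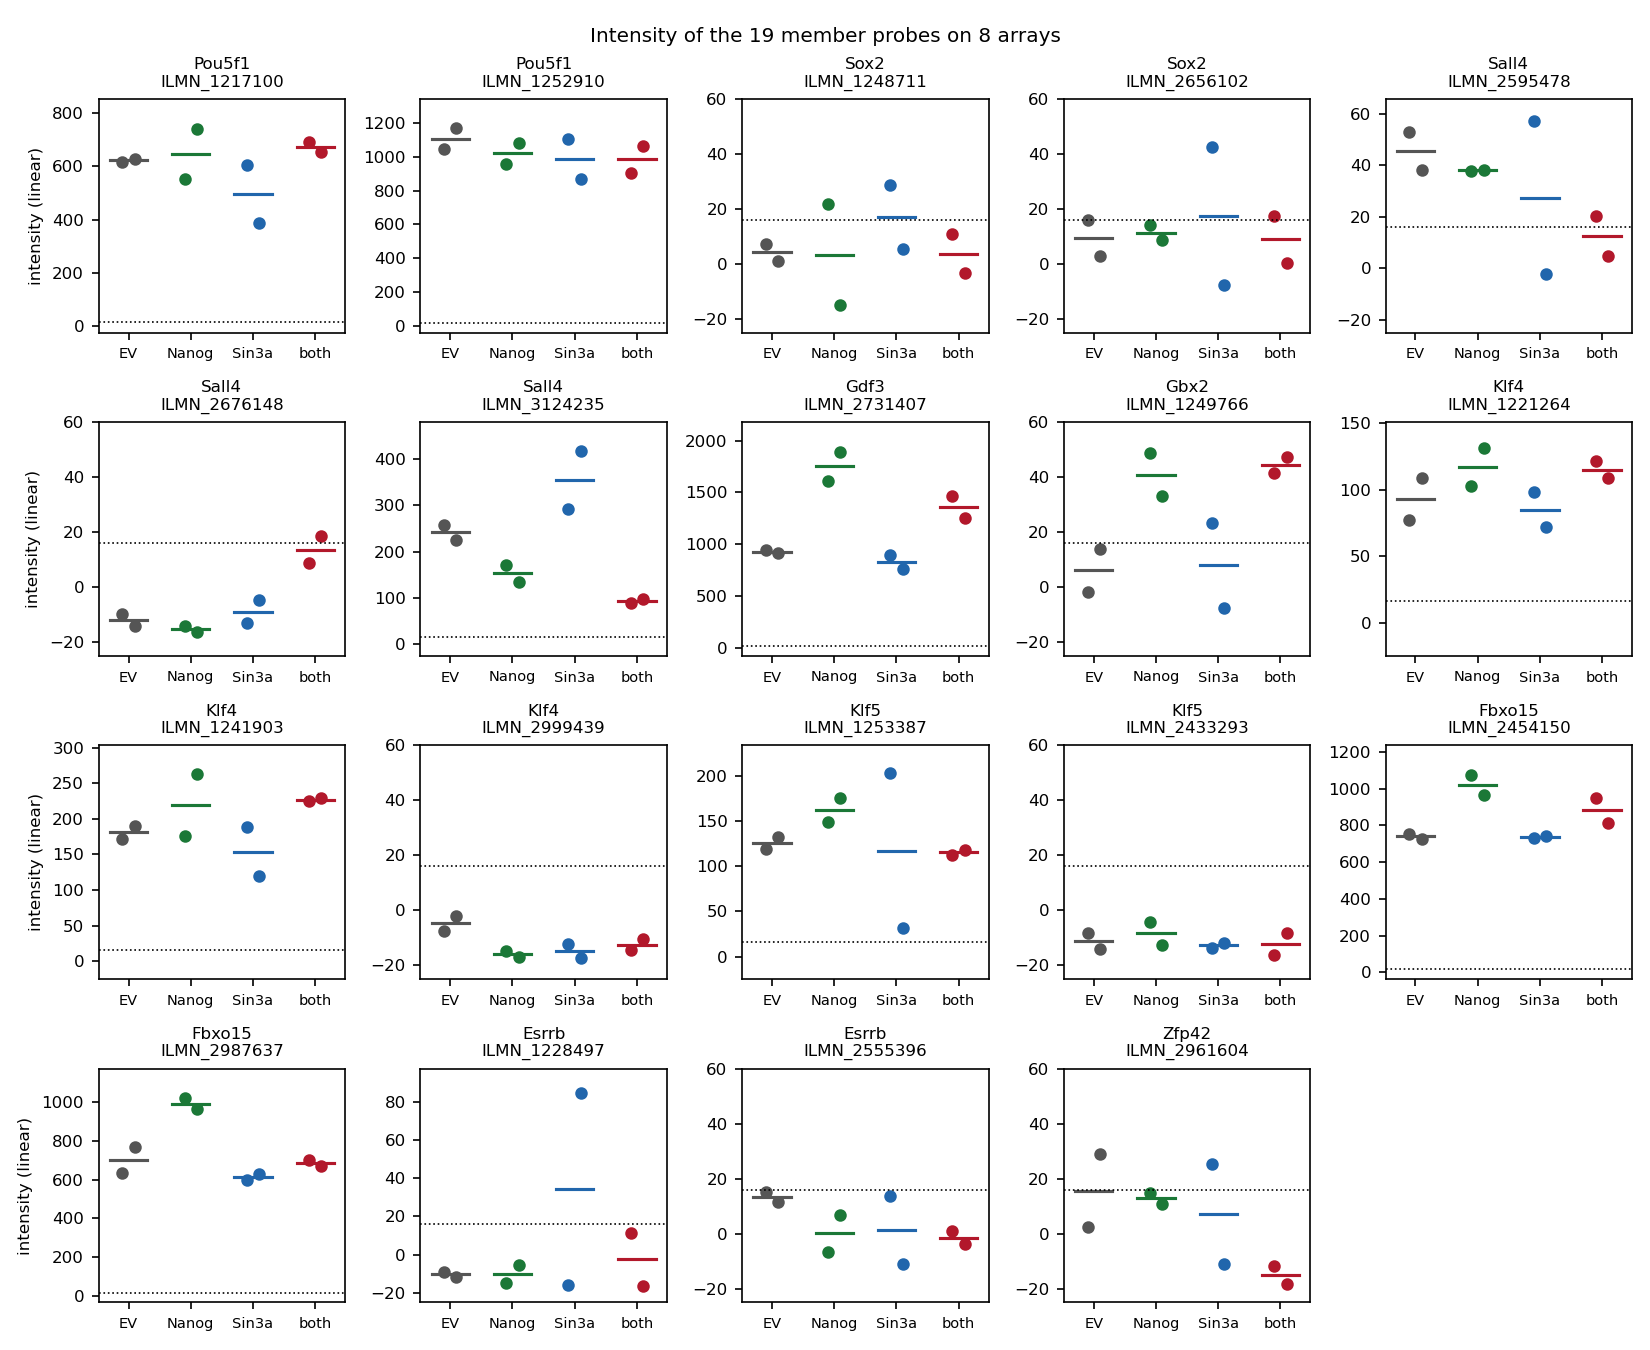
Linear intensity (y axis, 1 scale per panel) of each of the 19 probes on the 8 arrays, by group, where "both" is Nanog+Sin3a, a point is an array, a bar is the mean of 2 arrays and the dotted line is the floor of 16. Gdf3 read 1249.7 to 1894.4 with Nanog and 757.2 to 947.7 without it, while the Sall4 probe ILMN_3124235 read 88.5 to 171.1 with Nanog and 226.1 to 416.8 without it.

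Pou5f1, the gene of the core factor Oct4, was bright in every group and did not pass the test in any comparison. Its first probe (ILMN_1217100) read 618.3 and 626 in EV, 554.4 and 742.3 in Nanog, 604.4 and 386 in Sin3a, and 692.4 and 653.3 in Nanog+Sin3a. Its second probe (ILMN_1252910) read 1046.4 and 1167.3 in EV, 956.8 and 1082.6 in Nanog, 1106.5 and 867.1 in Sin3a, and 903.5 and 1065.7 in Nanog+Sin3a. On the second probe all groups overlapped. On the first, both Sin3a arrays lay below both EV arrays and both Nanog+Sin3a arrays lay above them. With Nanog against EV the log2 difference of the first probe was 0.04 (95% interval -0.30 to 0.39) and that of the second -0.12 (-0.41 to 0.17). With Nanog+Sin3a against EV the values were 0.11 (-0.23 to 0.45) and -0.17 (-0.46 to 0.12).

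Sox2, the partner of Oct4, lay at or below 16 on most arrays. Its probe ILMN_1248711 read above 16 on 2 arrays, at 21.7 on the first Nanog array and 28.8 on the first Sin3a array. The other probe (ILMN_2656102) also read above 16 on 2 arrays, at 42.6 on the first Sin3a array and 17.4 on the first Nanog+Sin3a array. On the second Sin3a array the same probes read 5.3 and -7.6, so the highest value of each probe was on 1 array of a pair that disagreed. Nanog against EV gave a log2 difference of 0.22 (adjusted p = 0.618) for ILMN_1248711, which rests on the first Nanog array. For ILMN_2656102 all EV and Nanog arrays lay at or below 16, so its difference of 0 was set by the floor. Neither value can show whether Sox2 changed.

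Klf4, a reprogramming factor that supports the naive state, was read by 2 of its 3 probes. The probe ILMN_1221264 read 77.3 and 109 in EV, 102.5 and 131 in Nanog, 97.8 and 72 in Sin3a, and 121.1 and 108.5 in Nanog+Sin3a. The probe ILMN_1241903 read 171.3 and 190.7 in EV, 176.4 and 263.6 in Nanog, 188.8 and 119.4 in Sin3a, and 224.6 and 229 in Nanog+Sin3a. With Nanog against EV the log2 differences were 0.34 (SE 0.22, adjusted p = 0.478) and 0.25 (SE 0.19, adjusted p = 0.547), and the EV and Nanog arrays overlapped on both probes. With Nanog+Sin3a against EV they were 0.32 (adjusted p = 0.426) and 0.33 (adjusted p = 0.364).

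Klf5, a related factor that backs up Klf4 in embryonic stem cells, read 119.4 and 132.1 in EV, 148.6 and 175.4 in Nanog, and 112.5 and 118.3 in Nanog+Sin3a (ILMN_1253387). Both Nanog arrays lay above all EV and Nanog+Sin3a arrays. The log2 difference was 0.36 (SE 0.14, adjusted p = 0.242) for Nanog against EV and -0.48 (SE 0.14, adjusted p = 0.331) for Nanog+Sin3a against Nanog, and neither passed. The 2 Sin3a arrays read 203.2 and 31.2, the highest and the lowest value of the probe.

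Esrrb, a nuclear receptor that can stand in for Nanog in embryonic stem cells, had a single value above 16 over its 2 probes. It was 84.7 (ILMN_1228497) on the second Sin3a array, where the other Sin3a array read -15.7. Zfp42, a zinc finger gene, read above 16 on 2 arrays (ILMN_2961604), at 28.9 on the second EV array and 25.4 on the first Sin3a array. The Nanog arrays read 14.9 and 10.8 and the Nanog+Sin3a arrays -11.6 and -18.4, so forced Nanog did not bring either gene above the floor in these arrays.

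Sall4, a zinc finger factor bound to Oct4 and Nanog in embryonic stem cells, was lower in Nanog+Sin3a than in EV on 2 of its 3 probes. The brightest probe (ILMN_3124235), annotated to a different transcript than the other 2, read 258.2 and 226.1 in EV, 171.1 and 134.8 in Nanog, 292.9 and 416.8 in Sin3a, and 88.5 and 98.5 in Nanog+Sin3a. The groups did not overlap: Sin3a lay highest, then EV, then Nanog, and Nanog+Sin3a lowest. This probe fell in Nanog+Sin3a against EV by 1.37 on the log2 scale (SE 0.16, 95% interval -1.76 to -0.99, adjusted p = 0.0108), a 2.59-fold lower level. Its difference was -0.67 (SE 0.16, adjusted p = 0.103) for Nanog against EV and -0.70 (SE 0.16, adjusted p = 0.266) for Nanog+Sin3a against Nanog, neither of which passed.

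The second Sall4 probe (ILMN_2595478) read 53 and 38.1 in EV, 37.8 and 38.3 in Nanog, 57.2 and -2.4 in Sin3a, and 20.2 and 4.8 in Nanog+Sin3a. It fell by 1.32 in Nanog+Sin3a against EV (SE 0.24, adjusted p = 0.0329). With 1 of the Nanog+Sin3a arrays under the floor, this difference depends on it: a floor of 8 gave -1.82 (adjusted p = 0.0932) and a floor of 32 gave -0.49 (adjusted p = 0.104). The probe differed by -0.24 (adjusted p = 0.660) for Nanog against EV, where its arrays overlapped, and by -1.08 (SE 0.24, adjusted p = 0.266) for Nanog+Sin3a against Nanog. The third probe (ILMN_2676148) lay between -16.4 and 8.8 except for 18.5 on the second Nanog+Sin3a array and was not tested. Leaving out any EV or Nanog+Sin3a array raised the adjusted p of the brightest probe above 0.05, to between 0.0859 and 0.191, and leaving out any of those or of the Nanog arrays did so for the second probe (0.0705 to 0.198).

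Gdf3, a TGF-beta family ligand made by embryonic stem cells, was the member that rose with Nanog. Its probe (ILMN_2731407) read 947.7 and 911.4 in EV, 1613 and 1894.4 in Nanog, 893.9 and 757.2 in Sin3a, and 1467.2 and 1249.7 in Nanog+Sin3a. Every array with Nanog lay above every array without it, and both Nanog arrays lay above both Nanog+Sin3a arrays. The mean intensity was 1754 ± 199 (SD, n = 2) in Nanog and 929.6 ± 25.7 (SD, n = 2) in EV. On the log2 scale Gdf3 rose by 0.91 (SE 0.12, 95% interval 0.63 to 1.20, adjusted p = 0.0212), a 1.88-fold higher level. In Nanog+Sin3a against EV the difference was 0.54 (SE 0.12, adjusted p = 0.0506), which did not pass among all 18558 probes and passed among the bright ones (adjusted p = 0.00553; over the 12 alternative settings 0.00553 to 0.286). Leaving out any EV, Nanog or Nanog+Sin3a array raised the adjusted p for Nanog against EV above 0.05, to between 0.0774 and 0.327, while the log2 difference stayed between 0.80 and 1.03.

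Gbx2, a homeobox gene downstream of LIF signalling, read -1.6 and 13.9 in EV, 48.8 and 33 in Nanog, 23.5 and -7.4 in Sin3a, and 41.5 and 47.3 in Nanog+Sin3a (ILMN_1249766). All 4 arrays with Nanog lay above 16 and above the 4 arrays without it, and of the latter only the first Sin3a array was above 16. The probe therefore entered the test through the groups where it is high, and not through EV. Gbx2 rose in Nanog+Sin3a against EV by 1.47 on the log2 scale (SE 0.24, adjusted p = 0.0259). Because both EV arrays lay under the floor, its level was at least 2.77-fold higher. In Nanog against EV it was at least 2.51-fold higher, but the difference of 1.33 (SE 0.24, adjusted p = 0.0541) did not pass. Between Nanog+Sin3a and Nanog the limma difference was 0.14 (SE 0.24, adjusted p = 0.879). The rise in Nanog+Sin3a against EV lost its call when any EV or Nanog+Sin3a array or the first Nanog array was left out (adjusted p = 0.0502 to 0.251). With a floor of 32 this rise was 0.47 (adjusted p = 0.153).

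Fbxo15, an F-box gene used as a reporter of the embryonic stem cell state, was measured by 2 bright probes. The probe ILMN_2454150 read 755.7 and 723.4 in EV, 1074.1 and 964.3 in Nanog, 730.4 and 744.1 in Sin3a, and 950.3 and 811.7 in Nanog+Sin3a. The probe ILMN_2987637 read 636 and 767.1 in EV, 1019.3 and 963.5 in Nanog, 599.8 and 630.4 in Sin3a, and 701.8 and 669.7 in Nanog+Sin3a. Both Nanog arrays were above all others on each probe, and the probes parted in Nanog+Sin3a: on the first, both of its arrays lay above EV, and on the second they lay between the EV arrays. Nanog against EV differed by 0.46 (SE 0.11, adjusted p = 0.100) and 0.50 (SE 0.11, adjusted p = 0.0829) in the fit of all 18558 probes. Among the bright probes of 8 arrays the same differences passed, with adjusted p = 0.0233 and 0.0186. Over the alternative settings the adjusted p ranged from 0.0233 to 0.417 for the first probe and from 0.0186 to 0.415 for the second. In Nanog+Sin3a against EV the differences were 0.25 (adjusted p = 0.225) and -0.03 (adjusted p = 0.915).

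The members were read against all probes tested on the same arrays. For Nanog against EV, 1 of 14 member probes passed (Gdf3, higher), where 2.04% of the 18558 probes did, and among the bright probes 3 of 5 passed (Gdf3 and both of Fbxo15), where 9.89% of 2670 did. For Nanog+Sin3a against EV, 3 of 14 passed (Gbx2 higher, 2 probes of Sall4 lower), where 5.87% of all probes did. Gbx2 is among the 14 only through arrays outside EV. Among the bright probes 1 of 5 passed in that comparison (Gdf3), where 17.3% of all bright ones did, a share close to the background. Both comparisons use the same EV arrays. These 4 calls of the 7-array fit (Gdf3, Gbx2 and 2 of Sall4) were all lost with no filter on low values (adjusted p = 0.143 to 0.286) and with all 8 arrays (0.163 to 0.683). The backgrounds were as fragile: the calls over all probes went from 378 to 0 without any Nanog or EV array and to 6 without either Nanog+Sin3a array, and for Nanog+Sin3a against EV from 1090 to 0 without any EV or Nanog+Sin3a array. The median log2 difference of the 14 probes was 0.24 with Nanog and 0.03 with Nanog+Sin3a, each against EV, where that of all probes was 0. The median size of the difference, whatever its direction, was 0.35 against 0.21 for all probes in the first comparison and 0.28 against 0.25 in the second.

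For Nanog+Sin3a against Nanog, 0 of 14 member probes passed limma's test, where 0.0162% (3 of 18558) of all probes did. At an unadjusted p under 0.05 there were 5 of 14 and 1937 of 18558. The 5 were Fbxo15 (ILMN_2987637, -0.53, SE 0.11, adjusted p = 0.251), the 2 tested Sall4 probes, Klf5 and Gdf3 (-0.37, SE 0.12, adjusted p = 0.363). All 5 were lower with Sin3a added, and how many of the 1937 were lower was not computed. In each of the 5 the 2 Nanog+Sin3a arrays lay below the 2 Nanog arrays. Picking probes by this p favours such a separation, so it adds no support, and its share over all probes was not computed. The Nanog probe ILMN_1245732 was also lower in Nanog+Sin3a than in Nanog, at 285.2 and 289.5 against 364.8 and 485.8. Its part in these values was not tested.

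**Figure D2:**
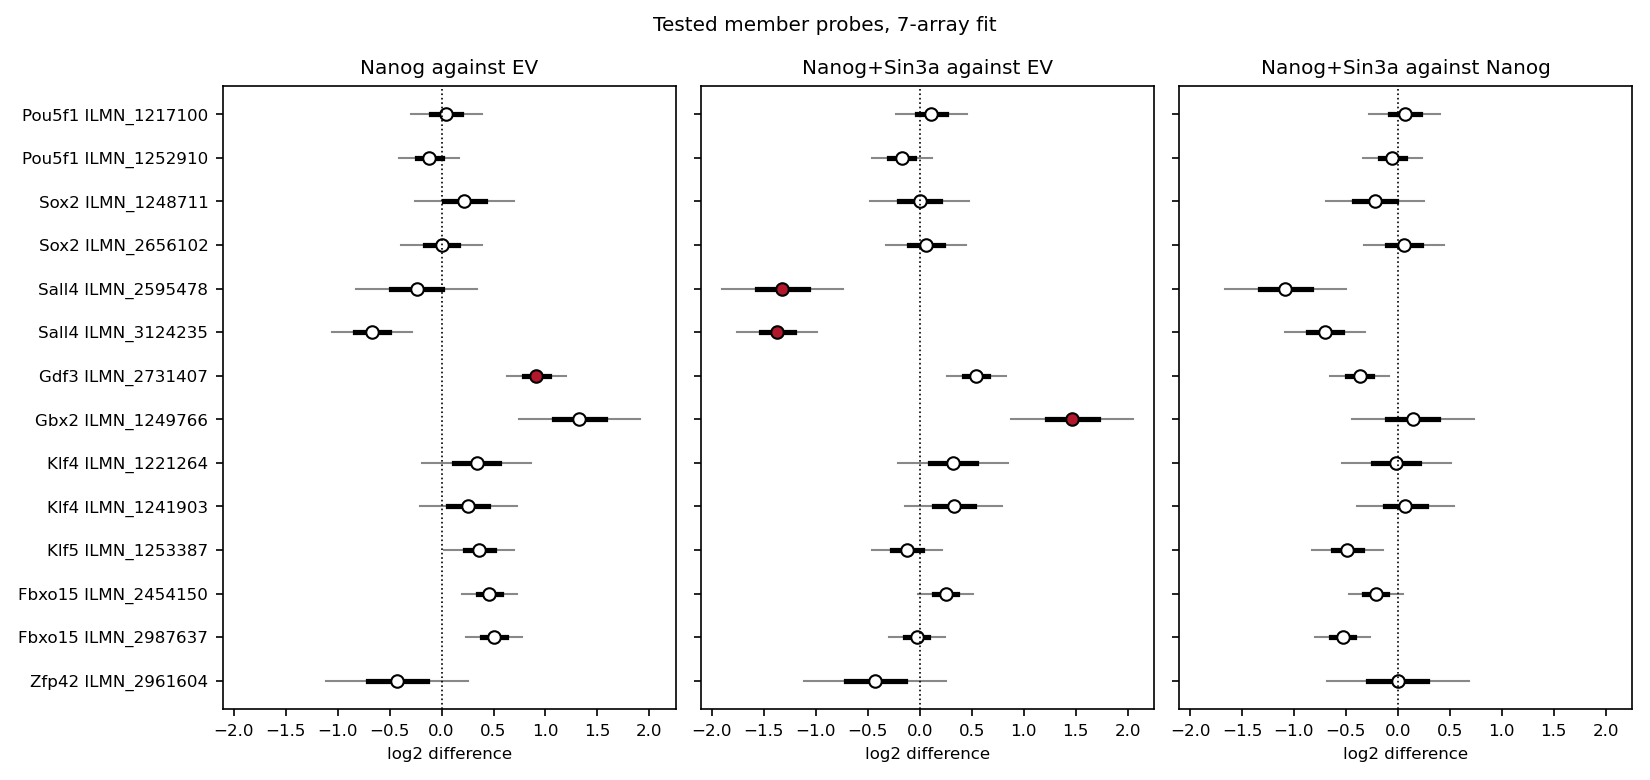
Log2 difference (x axis) of the 14 tested probes in 3 comparisons of the 7-array limma fit, with thick bars for 1 SE, thin bars for the 95% interval and red points for adjusted p under 0.05. Gdf3 is red at 0.91 for Nanog against EV, Gbx2 at 1.47 and Sall4 at -1.32 and -1.37 for Nanog+Sin3a against EV, and no point is red for Nanog+Sin3a against Nanog.

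Sin3a alone could be tested on the 5 bright member probes, those of Pou5f1, Gdf3 and Fbxo15. For Sin3a against EV, 0 of 5 passed limma's test, where 0.15% of 2670 bright probes did, and at an unadjusted p under 0.05 there were 0 of 5 and 206 of 2670. The differences were -0.37 (95% interval -0.74 to 0.01) and -0.17 (-0.45 to 0.10) for Pou5f1, -0.18 (-0.44 to 0.09) for Gdf3, and -0.00 (-0.26 to 0.25) and -0.18 (-0.45 to 0.08) for Fbxo15. The -0.37 of the first Pou5f1 probe rests on the second Sin3a array: it was -0.042 without that array and -0.69 without the first. In the 7-array fit, with 1 Sin3a array, 0 of 14 member probes and 0% of all 18558 passed, and 3 of 14 and 658 of 18558 had an unadjusted p under 0.05. The 3 were both Sox2 probes (1.41, adjusted p = 0.607, and 0.85, adjusted p = 1) and Klf5 (0.69, adjusted p = 1), each with the lower value on the array that was left out, as given above.

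With Nanog added to Sin3a, Gdf3 rose among the bright probes by 0.72 (SE 0.13, 95% interval 0.46 to 0.98, adjusted p = 0.000779), from 825.6 ± 96.7 to 1358 ± 154 (SD, n = 2 each). It was the 1 of 5 bright member probes to pass, where 11.6% of bright probes did. The first Pou5f1 probe differed by 0.48 (SE 0.18, adjusted p = 0.0812), but this value rests on which Sin3a array is kept. It was 0.15 (adjusted p = 0.706) without the second and 0.80 (adjusted p = 0.00778) without the first, and over the 8 fits with an array left out it passed in 3, those without the first Sin3a array or either Nanog array. In the 7-array fit 2 of 14 passed (Sall4 ILMN_3124235, -1.65, adjusted p = 0.0250, and Sox2 ILMN_2656102, -1.35, adjusted p = 0.0424), where 1.07% of all probes did. Gdf3 was not among them, at 0.60 (adjusted p = 0.122). Each of the 2 rests on 1 Sin3a array, and for Sox2 the array left out read -7.6, below both Nanog+Sin3a arrays.

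The interaction term, which subtracts the Sin3a effect in empty-vector cells from that in Nanog cells, passed in 0 of 5 bright member probes, where 0.0375% of bright probes did, and at an unadjusted p under 0.05 in 0 of 5 and 170 of 2670. Its interval was -0.56 to 0.18 for Gdf3 and -0.09 to 0.96 for the first Pou5f1 probe.

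The genes most like each member that changed in a comparison without the Sin3a group, over the 7 arrays, were found by the root mean square difference of centred log2 values. For Gdf3 they were Epb41l4a (0.0782), Gemin7 (0.0818) and Il6ra (0.0868), where the SD of Gdf3 itself was 0.437. For Gbx2 they were Notch4 (0.138), Gstm2 (0.151) and Cyria (0.151), with an SD of 0.698. The brightest Sall4 probe was followed most closely by Ube2ql1 (0.109), Nat8l (0.118) and Sox11 (0.122), and the second by Skil (0.141), Antxr2 (0.190) and Tnfsf11 (0.196). The 2 Sall4 probes thus had different nearest genes, and none of the 12 was a network gene of the lists.

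The rest of the network was read from a list of 42 other core and naive genes, of which 40 were on the array and 33 probes of 22 genes could be tested. In Nanog against EV 0 of the 33 passed, and the largest differences were those of Rif1, a telomere and replication timing factor, at -1.05 (adjusted p = 0.134) and -0.93 (adjusted p = 0.262). In Nanog+Sin3a against EV 1 passed: a probe of Mybl2, a cell cycle transcription factor, fell from 33.1 and 43.9 in EV to 4.2 and 12.3, both under the floor (ILMN_2637886, adjusted p = 0.0294). Its fitted difference of -1.25 (SE 0.22) is therefore set by the floor. A brighter Mybl2 probe (ILMN_2826881) read 915.8 and 845.7 in EV and 880.7 and 901.4 in Nanog+Sin3a, so the probes of this gene parted. In Nanog+Sin3a against Nanog 0 of 33 passed, with Tfcp2l1 at 1.08 (adjusted p = 0.625) and Tet1 at -0.76 (adjusted p = 0.295). The medians of the list were 0, 0 and -0.17 in these comparisons. Of 9 genes of the primed epiblast, the state after implantation, 3 probes of 2 genes could be tested, and 0 passed in any of the 3 comparisons.

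**Figure D3:**
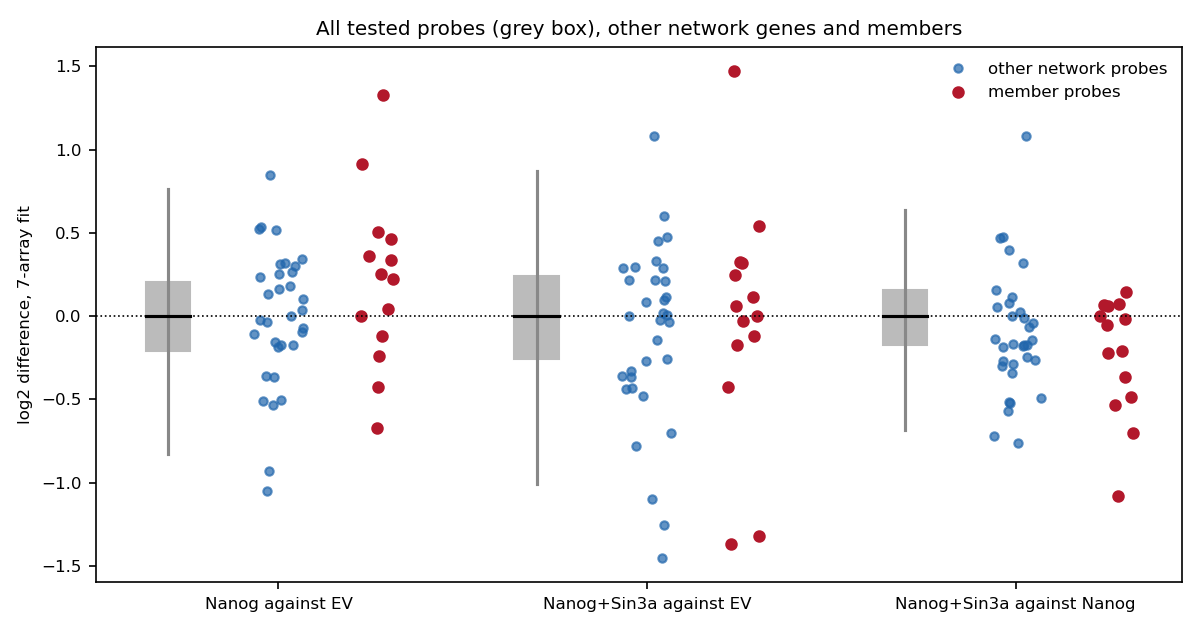
Log2 difference (y axis) in 3 comparisons of the 7-array fit for all 18558 tested probes (grey box, the middle 50% with the median; grey line, the middle 95%), the 33 probes of other network genes (blue) and the 14 member probes (red), spread sideways for legibility. Most red and blue points lie around 0, and those farthest from it for Nanog+Sin3a against EV are Gbx2 at 1.47 and Rif1 at -1.45.

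Markers of other cell types were read on the same arrays. Of the neural stem cell genes, the source of these cells, Pax6 (-15.4 to 15), Olig2 (-15.8 to 16.7) and Fabp7 (-14.5 to 2.4) lay at or near the floor. Others were well above it: Vim read 2199.9 to 2973.3 (ILMN_2451022), Cd44 1590.2 to 2036 (ILMN_1223697) and Egfr 371.7 to 695.7 (ILMN_2693922). Of the 33 neural probes, 12 to 15 lay above 16 on each array. Over the whole neural list, 16 probes of 5 genes were tested. In Nanog against EV 1 fell (Egfr, -0.66, adjusted p = 0.0414). Against the same EV arrays, 2 fell in Nanog+Sin3a (Nes, -0.78, adjusted p = 0.0427, and Egfr, -0.73, adjusted p = 0.0207) and 1 rose (Vim, 0.38, adjusted p = 0.0496). The fall of Nes is that of ILMN_2703267. Another Nes probe (ILMN_2904590) overlapped, at 32.4 and 18.6 in EV and 14.7 and 27.8 in Nanog+Sin3a. Among 22 housekeeping probes 3 fell with Nanog and 4 with Nanog+Sin3a, including Pgk1 (ILMN_2651886, -0.59 and -0.85, adjusted p = 0.0350 and 0.00844). The part of these shifts in the members' values was not tested.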

How the data were processed

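RNA was measured on 8 Illumina bead arrays (4 groups of 2) from biotinylated cRNA. The deposited values are linear probe intensities from GenomeStudio, per the submitters' processing notes, whose version, background method and normalisation are not given in the sources used here. They run from -24 to 14965.3, so a background had been subtracted. They were kept as deposited, raised to 16 and converted to log2. Of the probes, 34885 had 1 symbol in the array annotation, 18 had several, and 10378 were unnamed. Columns of other samples numbered 0.

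Differences were fitted in R 4.3.3 with limma 3.58.1 (lmFit, eBayes with an intensity trend, 1 coefficient per group, two-sided tests, Benjamini-Hochberg adjustment over all probes of the fit at 0.05). The 7-array fit held 18558 probes above 16 on at least 2 arrays (3 residual degrees of freedom), and its lone Sin3a array was assumed to vary like the others. The bright fit held 2670 probes on 8 arrays (4 residual degrees of freedom). The code was tested on simulated data. The number of arrays limits the precision.

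Named genes were all member probes, Nanog, Sin3a, up to 4 passing genes of each list and comparison (or up to 2 as values where none passed), and the 3 probes most like each called member. Other probes of a named list gene, the Rif1 value for Nanog+Sin3a, the marker genes at the floor and the bright neural levels were picked after their values were seen. The members, the lists and the split of the fits were chosen with earlier results of these data known. Alternatives were the floor, the filter, an offset, no trend, another quantile step, 1 probe per symbol, array weights, other sets of arrays and a replicate term. Promoters came from a RefSeq table of GRCm38.p6.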

Additional observations from a re-analysis of the deposited data

Results flagged for a closer look

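The arrays of the Sall4 probe ILMN_3124235 lay on opposite sides of their controls with Sin3a in cells without and with Nanog, although neither difference passed. Both Sin3a arrays (292.9 and 416.8) lay above both EV arrays (258.2 and 226.1), while both Nanog+Sin3a arrays (88.5 and 98.5) lay below both Nanog arrays (171.1 and 134.8). In the 7-array limma fit Sin3a against EV differed by 0.28 (adjusted p = 1) and Nanog+Sin3a against Nanog by -0.70 (adjusted p = 0.266). The difference between the 2 effects was -0.98 on the log2 scale (SE 0.25, adjusted p = 0.917), which did not pass. The highest value, 416.8, is from the second Sin3a array, which was left out of that fit and is noisy at this intensity. Arrays on such opposite sides were searched for over the member probes only. How many of all probes show them was not computed, so chance is not excluded.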

How the results depend on the processing

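Over the 57 member results, 942 alternative values were computed. Of these, 865 kept direction and call, 21 gained a call, 34 lost one and 22 turned direction. Only the 5 called results of the 57 could lose a call. All 34 losses are theirs and are not to be set against the 942. For Nanog against EV, the 1 called member probe became 0 with no filter on low values, 0 with no intensity trend and 0 with all 8 arrays. It became 2 with 1 probe per symbol and without both Sin3a arrays, 3 with log2(value + 32) or in bright probes, and 5 with array weights. With an array left out it ranged from 0 to 2, and the count over all probes from 0 to 426. For Nanog+Sin3a against EV, the 3 called became 0 with no filter or all 8 arrays, 1 in bright probes, and 0 to 4 with an array left out (0 to 1183 over all probes). The floor of 8 or 32 gave 2, array weights or leaving out both Sin3a arrays gave 4, and log2(value + 32) gave 4. For Nanog+Sin3a against Sin3a, the 1 called (Gdf3) became 2 other probes on 7 arrays (Sall4 ILMN_3124235 and Sox2 ILMN_2656102), where Gdf3 lost its call, and 1 to 2 with an array left out, Gdf3 among them each time. Counts for Nanog+Sin3a against Nanog, Sin3a against EV and the interaction were 0 under every alternative run. Same-numbered arrays of EV, Nanog and Nanog+Sin3a did not deviate together (r = -0.05, -0.02 and -0.05). This cannot show whether they were handled together, which the labels do not state. With a replicate block the member counts were 1 and 3 as before. Those over all probes went from 378 to 196 and from 1090 to 573. All 8 arrays gave 0 and 27 over all probes, and array weights gave 972 and 1843.

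Differences that turned were uncalled and small. Under log2(value + 32), Sox2 ILMN_2656102 gave -0.031 (Nanog+Sin3a against EV) and -0.11 (against Nanog). On 7 arrays, Pou5f1 ILMN_1252910 gave 0.0017 (Sin3a against EV), -0.17 (Nanog+Sin3a against Sin3a) and -0.054 (interaction). With an array left out, the ranges for Nanog against EV were -0.17 to 0.25 (Pou5f1 ILMN_1217100) and -0.035 to 0.54 (Klf4 ILMN_1241903). For Nanog+Sin3a against EV the range was -0.16 to 0.11 (Fbxo15 ILMN_2987637). For Nanog+Sin3a against Nanog they were -0.14 to 0.28 (Pou5f1 ILMN_1217100), -0.17 to 0.066 (Pou5f1 ILMN_1252910), -0.22 to 0.36 (Klf4 ILMN_1241903), -0.19 to 0.16 (Klf4 ILMN_1221264) and -0.14 to 0.42 (Gbx2). For Sin3a against EV they were -0.036 to 0.027 (Fbxo15 ILMN_2454150) and -0.35 to 0.0017 (Pou5f1 ILMN_1252910), and for that Pou5f1 probe -0.17 to 0.18 against Sin3a and -0.054 to 0.30 for the interaction. The cause was not tested. Signal over background limits Sox2, Esrrb, Zfp42 and Gbx2, whose EV values all lay near or below the floor.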

Other observations

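Genes of lineages outside the network also differed between the groups. Thy1, a surface protein of mesenchymal and other cells, rose with Nanog against EV by 1.13 on the log2 scale (limma, adjusted p = 0.0131), from 218.2 and 215.6 to 508.3 and 443.8, and was 1 of 9 tested mesenchymal probes to pass there. In Nanog+Sin3a against EV, 2 of the 9 probes rose and 1 fell. Thy1 rose by 0.75 (adjusted p = 0.0223), to 341.8 and 391.7. Dcn, a matrix proteoglycan, rose from 14.3 and -3.1, both under the floor, to 92.6 and 79.4. Its fitted difference, counted from the floor, was 2.42 on the log2 scale (SE 0.35, adjusted p = 0.0183). The Dcn probe entered the test only through arrays with Nanog. Fn1, a matrix glycoprotein, fell from 34.1 and 33.3 to 7.2 and 7.1, both under the floor. Its fitted difference, counted down to the floor, was -1.07 (SE 0.19, adjusted p = 0.0318). Col1a1 lay between -14.2 and 16.5 on the 8 arrays. In the primitive endoderm list, Dab2, an endocytic adaptor, fell with Nanog by 0.70 (1 of 5 probes, adjusted p = 0.0255) and with Nanog+Sin3a by 0.83 and 0.81 (2 of 5 probes, adjusted p = 0.0160 and 0.0112), while Gata4 lay between -16.5 and 9.3. Tfap2a, a trophectoderm factor, fell by 0.76 and 0.64 (1 of 6 probes each, adjusted p = 0.0329 and 0.0322).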
